A study of Homo sapiens with 6 samples.

Results

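The genes of MHC class I antigen presentation were examined in 6 RNA-seq libraries of SACC-83, an established human cell line labelled as salivary adenoid cystic carcinoma cells. The 9 genes, out of 27328 loci in the deposited table, were taken by their symbols: HLA-B, HLA-C, HLA-E, B2M, TAP1, TAP2, TAPBP, PSMB8 and PSMB9. A group of 3 libraries came from cells with a vector control, whose genotype is given as wild type, and a group of 3 from cells overexpressing circMYBL1, a circular RNA named after the gene MYBL1. The genotype labels of the overexpression libraries read circMYBL1, circMYBL2 and circMYBL3 in the order of the replicate numbers, while the design text names circMYBL1 alone, so whether all 3 carry the same construct is uncertain. The sequencing was made to look for target genes of the circular RNA. Levels are deposited FPKM, a fragment count divided by gene length and library size, so levels of different genes are compared per length. Each of the 9 genes passed the filter on low values, a FPKM of at least 1 in at least 3 libraries, and the 9 lay between 14.1 and 3268 FPKM.

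Class I molecules show peptides from inside the cell to CD8 T cells. Proteasomes cut proteins into peptides, the TAP transporter carries the peptides into the endoplasmic reticulum, and tapasin holds empty class I molecules at the transporter until a peptide is bound. A class I molecule is a polymorphic heavy chain paired with beta-2-microglobulin, and most of these genes are known to be inducible by interferons. Tumour cells with low class I levels are seen less well by T cells, while natural killer cells are held back by class I.

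As a check of the labels, MYBL1 stood at 9.04, 7.15 and 10.3 FPKM in the vector libraries, in the order of their numbers, and 359, 44.03 and 2025 FPKM in the like-numbered overexpression libraries. The value does not tell the circle from linear MYBL1. The summed FPKM per library lay between 371776 and 408826, and read depth is unknown. Of the markers fixed for epithelial cells, 7 of 8 passed the filter, with KRT8 at 741 to 1123 FPKM and EPCAM at 76.3 to 88.5 FPKM. Of 10 leukocyte markers, 1 passed, the lysosomal gene CD68 at 6.49 to 10.8 FPKM, and PTPRC, CD3E, MS4A1, LYZ and CD2 were listed at 0 in all 6 libraries.

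Of the 9 genes, 8 lie on chromosome 6 (GENCODE release 29, GRCh38). HLA-E is at 30489467 to 30494205 on the plus strand, HLA-C at 31268749 to 31272130 and HLA-B at 31269491 to 31357188, both on the minus strand. Further along are TAP2 (32821833 to 32838780, minus), PSMB8 (32840717 to 32844703, minus), PSMB9 (32844136 to 32859585, plus) and TAP1 (32845209 to 32853978, minus). The annotated span of PSMB9 contains that of TAP1 and overlaps that of PSMB8. TAPBP lies at 33299694 to 33314387 on the minus strand. B2M is on chromosome 15, at 44711487 to 44718877, plus strand. In this annotation HLA-B and HLA-C share 35 exon bases, and PSMB8 and PSMB9 share 139 on opposite strands. The gene PSMB8-AS1 covers 20.6% of the exon bases of PSMB8 and 9.49% of those of TAP1, both on the opposite strand. It also covers 5.66% of those of PSMB9, on the same strand. The pseudogene AL671883.2 covers 17.8% of the exon bases of HLA-B on the opposite strand. Whether counting used strand is not given in the sources used here, so reads from these overlaps cannot be told apart. Reads of HLA genes are matched to the reference alleles and not to those of the line, which limits their levels as measurements. Of the windows of 75 bases along a reference transcript, 0% for HLA-B, 1.98% for HLA-C and 2.02% for HLA-E also occur in a transcript of another gene.

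Promoters are shown because 8 of the 9 genes differed together between the libraries, as given below, while TAP2 did not pass that test. RefSeq promoter windows on GRCh38, from 250 bases before to 50 after a gene's start, were found for 8 of the 9 genes (not HLA-E). They were searched on both strands for the interferon-stimulated response element (GAAA, any 2 bases, GAAA) and for a form with a shorter first block (GAA, any 2 bases, GAAA). RefSeq starts can differ from the ends of the GENCODE spans given above. The TAP1 and TAPBP stretches lie inside those spans, and the TAP2 stretch partly overlaps its span. All stretches run 5′ to 3′ on the gene's strand and end before the RefSeq start. Matches to either motif are in capitals, with both motifs overlapping in TAP2:
HLA-B (chr6:31357285-31357374, minus): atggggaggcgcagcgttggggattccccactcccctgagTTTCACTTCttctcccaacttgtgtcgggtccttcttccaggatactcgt
HLA-C (chr6:31272194-31272283, minus): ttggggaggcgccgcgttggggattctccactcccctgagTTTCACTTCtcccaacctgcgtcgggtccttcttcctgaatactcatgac
B2M (chr15:44711333-44711428, plus): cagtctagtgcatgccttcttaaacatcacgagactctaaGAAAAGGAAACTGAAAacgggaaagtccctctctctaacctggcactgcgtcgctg
TAP1 (chr6:32853783-32853878, minus): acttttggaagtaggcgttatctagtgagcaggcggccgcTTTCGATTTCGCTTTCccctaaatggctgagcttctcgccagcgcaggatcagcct
TAP2 (chr6:32838748-32838837, minus): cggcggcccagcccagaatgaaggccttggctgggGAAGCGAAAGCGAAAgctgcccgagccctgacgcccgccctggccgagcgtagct
TAPBP (chr6:33314079-33314138, minus): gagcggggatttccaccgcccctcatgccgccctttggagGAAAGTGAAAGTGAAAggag

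The full element was found in the windows of 5 of the 8 genes with an entry (B2M, TAP1, TAP2, TAPBP and PSMB8), against 3.57% of all 35116 windows. The shorter form was found in 4 of 8 (HLA-B, HLA-C, TAP2 and PSMB8), against 7.66%. The 8 genes hold 10 windows, with a pair each for TAP1 and PSMB8, so these counts of genes are not like the shares of windows. In PSMB8, which has a pair of windows, the full element reaches across a start and the shorter form lies after it, so neither is printed. PSMB9 held neither motif in its window. The printed TAP1 stretch with the full element lies before the RefSeq start of PSMB9, but beyond the edge of that window. Whether the element also serves PSMB9 was not tested. A match describes letters and not bound sites, and TAP2 carries both motifs.

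The classical heavy chains HLA-B and HLA-C, which present peptides to CD8 T cells, were higher in overexpression in each same-numbered pair and highest in the libraries numbered 2. In the vector libraries, listed here and below in the order of replicate numbers 1, 2 and 3, HLA-B read 145, 413 and 146 FPKM. In the overexpression libraries it read 403, 526 and 209 FPKM. The groups overlap, because vector replicate 2 lies above overexpression replicates 1 and 3. The ratio of overexpression to vector was 2.78, 1.27 and 1.43 for numbers 1, 2 and 3, and the mean was 235 ± 154 against 379 ± 160 FPKM (SD, n = 3 each). With group as the only term, limma gave a log2 fold change on the log2(FPKM + 1) scale of 0.78 with an SE of 0.50 and an adjusted p of 1.0. With replicate number as a block, which removes what same-numbered libraries share, the SE was 0.18 and the gene still missed the threshold (limma, adjusted p = 0.285, unadjusted p = 0.00156).

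HLA-C read 170, 375 and 198 FPKM in vector libraries and 344, 449 and 233 FPKM in overexpression libraries. The pair ratios were 2.02, 1.20 and 1.18, so that pair 1 again stood furthest apart. HLA-C was 0.50 higher on the log2 scale (SE 0.36, limma, adjusted p = 1.0; block SE 0.14, adjusted p = 0.460). HLA-B and HLA-C changed places: the ratio of HLA-B to HLA-C was below 1 in vector replicates 1 and 3 and overexpression replicate 3 (0.854, 0.741 and 0.896) and above 1 in vector replicate 2 and overexpression replicates 1 and 2 (1.10, 1.17 and 1.17). HLA-E, a nonclassical heavy chain read by receptors of natural killer cells, varied least of these 3 genes. It read 77.0, 115 and 87.3 FPKM in vector libraries and 102, 122 and 89.4 FPKM in overexpression libraries, a log2 fold change of 0.17 (SE 0.20, limma, adjusted p = 1.0; block adjusted p = 0.768).

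B2M, the light chain shared by class I molecules, was the most abundant of the 9 genes. Its level was 1517, 2777 and 1500.5 FPKM in vector libraries, against 2242, 3268 and 1728 FPKM in overexpression libraries. Overexpression was higher in 3 of 3 pairs, with ratios of 1.48, 1.18 and 1.15, and the groups overlap. On the log2 scale B2M was 0.33 higher (SE 0.33, limma, adjusted p = 1.0; block SE 0.10, adjusted p = 0.497). Summed HLA-B and HLA-C stood at 20.7%, 28.4% and 22.9% of B2M in vector libraries and at 33.3%, 29.8% and 25.6% in overexpression libraries, so overexpression replicate 1 had the most heavy-chain mRNA per light-chain mRNA. The 9 genes together held 0.516% to 1.06% of the summed FPKM in vector libraries and 0.619% to 1.22% in overexpression libraries.

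**Figure D1:**
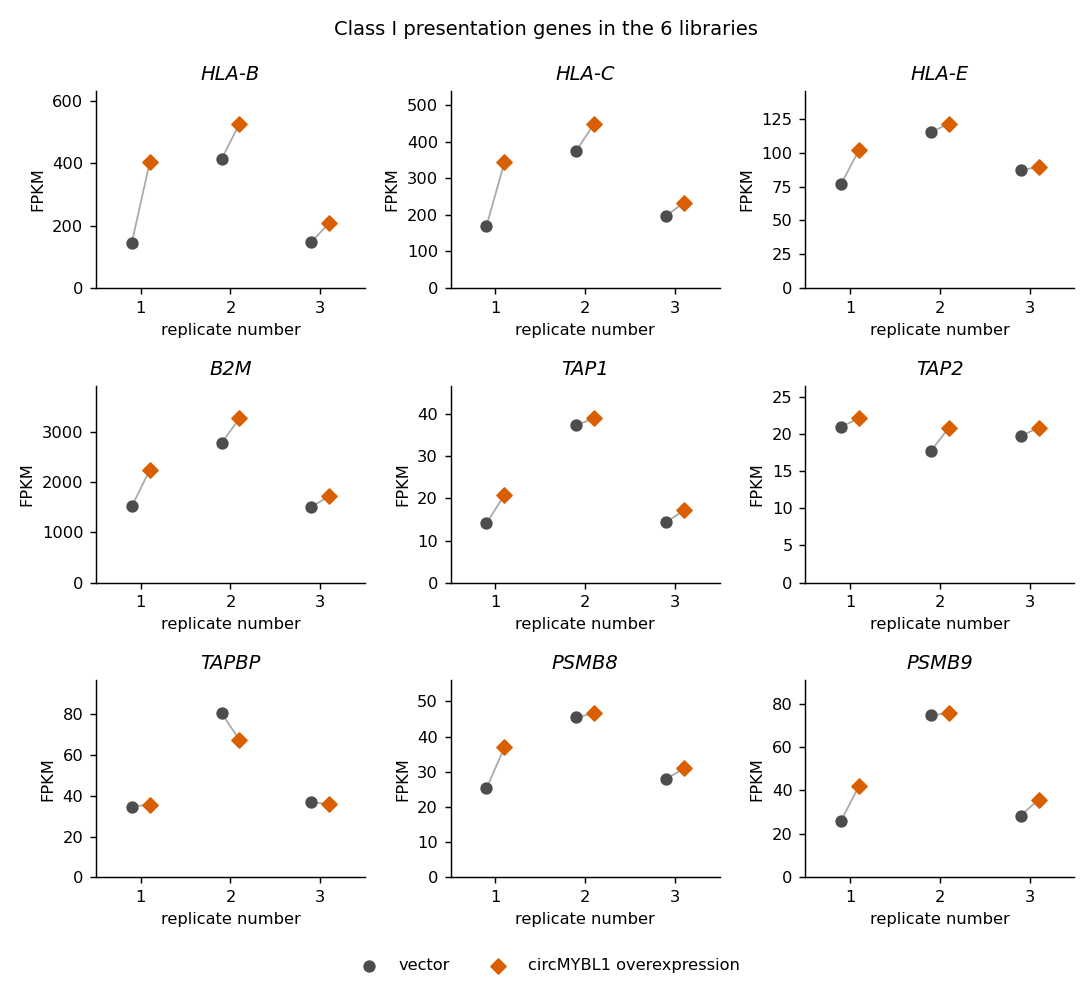
Level of each of the 9 genes (FPKM, linear axis from 0) by replicate number, with circles for vector and diamonds for overexpression libraries, 1 point per library, and grey lines joining same-numbered libraries. The libraries numbered 2 are highest for 8 genes, TAP2 is nearly flat at 17.7 to 22.1 FPKM, and HLA-B has the largest ratio within a pair, 145 against 403 FPKM for number 1.

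The transporter is a dimer of TAP1 and TAP2, whose levels ran apart. TAP1 read 14.1, 37.4 and 14.3 FPKM in vector libraries and 20.8, 39.0 and 17.2 FPKM in overexpression libraries. Both libraries numbered 2 were thus well above the other 4, and overexpression was higher in 3 of 3 pairs (ratios 1.47, 1.04 and 1.20; log2 fold change 0.28, SE 0.44, limma, adjusted p = 1.0; block adjusted p = 0.639). TAP2 read 20.95, 17.7 and 19.7 FPKM in vector libraries and 22.1, 20.8 and 20.8 FPKM in overexpression libraries. Its lowest library was vector replicate 2, where TAP1 was over 2 times its level in the other vector libraries, and its mean log2 difference between groups was 0.12 (SE 0.13, limma, adjusted p = 1.0; block adjusted p = 0.793). The ratio of TAP1 to TAP2 was 0.674, 2.12 and 0.727 in vector libraries and 0.944, 1.87 and 0.825 in overexpression libraries. In the annotation TAP2 shares 32.3% of its exon bases with the read-through gene AL669918.1, which was listed at no more than 0.274 FPKM.

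Tapasin, encoded by TAPBP, did not share the group pattern. TAPBP read 34.7, 80.7 and 37.1 FPKM in vector libraries and 35.7, 67.5 and 35.8 FPKM in overexpression libraries. Overexpression was lower in pairs 2 and 3 and higher in pair 1, for a log2 difference of -0.09 (SE 0.39, limma, adjusted p = 1.0; block adjusted p = 0.851). The ratio of TAPBP to TAP1 was 2.15 to 2.59 in the vector libraries and 1.72 to 2.08 in the overexpression libraries, ranges that do not overlap. That ratio was formed after the values were seen and was not tested.

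PSMB8 and PSMB9 encode inducible catalytic subunits of the proteasome, which replace PSMB5 and PSMB6 in the immunoproteasome and favour peptides that fit class I molecules. PSMB8 read 25.3, 45.4 and 27.9 FPKM in vector libraries and 36.9, 46.7 and 30.9 FPKM in overexpression libraries, with a log2 fold change of 0.24 (SE 0.26, limma, adjusted p = 1.0; block adjusted p = 0.717). PSMB9 read 26.1, 74.5 and 28.4 FPKM in vector libraries and 42.1, 75.6 and 35.7 FPKM in overexpression libraries, with a log2 fold change of 0.34 (SE 0.45, limma, adjusted p = 1.0; block adjusted p = 0.617). In both genes the libraries numbered 2 were alike between groups, with ratios of 1.03 and 1.01, and the gap was widest for number 1, with ratios of 1.46 and 1.61. PSMB9 kept close step with its neighbour TAP1: the ratio of their levels lay between 1.85 and 2.08 in all 6 libraries.

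The inducible subunits were next set against the constitutive subunits they replace, as ratios within a library. The percentages do not depend on library scaling, while the tested log2 ratios, with 1 added to each FPKM, depend on it slightly. PSMB8 stood at 20.7%, 60.4% and 26.2% of PSMB5 in vector libraries and at 28.1%, 53.0% and 33.5% in overexpression libraries. PSMB9 stood at 21.3%, 104% and 24.6% of PSMB6 in vector libraries and at 35.2%, 87.0% and 36.2% in overexpression libraries, so vector replicate 2 had slightly more PSMB9 than PSMB6. The third inducible subunit, PSMB10, stood at 5.40%, 19.6% and 6.51% of PSMB7 in vector libraries and at 5.79%, 15.7% and 6.17% in overexpression libraries. Between groups the log2 ratios differed by 0.20 for PSMB8 (exact permutation test, 2-sided, p = 0.7), by 0.33 for PSMB9 (exact p = 0.6) and by -0.10 for PSMB10 (exact p = 0.8), each with an adjusted p of 0.8 over the 3 ratios. The test of 3 against 3 libraries cannot give a p below 0.1. For PSMB8 and PSMB9 the ratio was higher in overexpression for numbers 1 and 3 and lower for number 2, and paired differences did not pass either (exact sign-flip p = 0.5 for both, smallest possible 0.25).

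**Figure D2:**
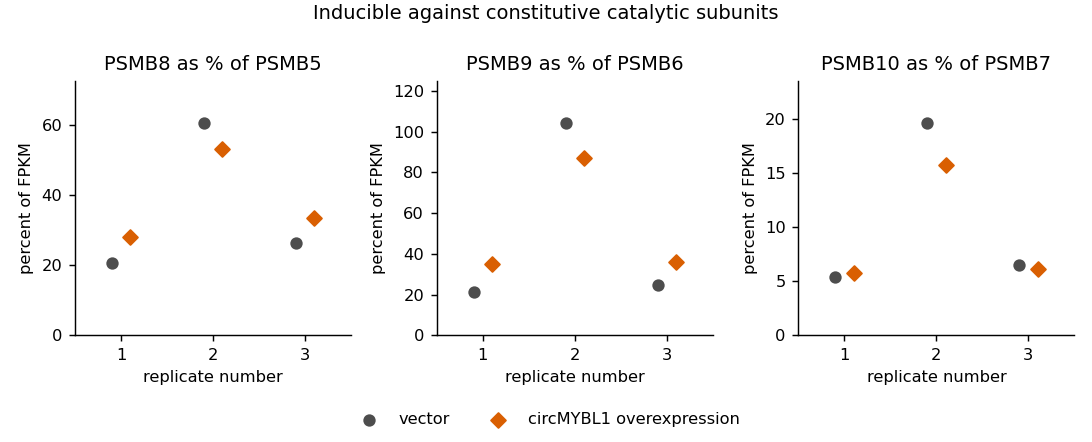
Inducible subunit as a percent of the constitutive subunit it replaces, from FPKM in the same library, by replicate number, with circles for vector and diamonds for overexpression libraries. The libraries numbered 2 are highest in each panel, for example at 60.4% and 53.0% for PSMB8, and there the vector library lies above the overexpression library.

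Between the groups, 8 of the 9 genes were higher on average in overexpression libraries and none was called. By limma with group as the only term 0 of 9 passed an adjusted p of 0.05, beside 0% of the 12064 loci tested, and at an unadjusted p of 0.05 the counts were 0 of 9 and 65 loci (0.539%). The count from the group-only fit carries little weight, since the SE of that fit also holds the differences between numbers. For HLA-B that SE was 0.50, against 0.18 with the replicate block. With the replicate block 0 of 9 passed, beside 0.0995% of all loci, and 5 of 9 (HLA-B, HLA-C, B2M, TAP1 and PSMB9) had an unadjusted p under 0.05, beside 7.19% of all loci. All 5 were higher in overexpression, beside 4.81% of all loci higher and 2.39% lower at that p. Overexpression was higher in 3 of 3 pairs for 8 of 9 genes, beside 16.5% of all loci, and the groups' ranges were separate for 0 of 9, beside 3.34% of all loci (2.5% with overexpression higher). Most of the 9 genes varied together over the libraries, so counts among them, here and below, are not of independent observations. The median log2 fold change was 0.28 over the 9 genes and 0.03 over all loci. By pair the medians were 0.53, 0.07 and 0.20 over the 9 genes and 0.06, 0.04 and -0.03 over all loci.

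Pair 1 carried the widest differences except in TAP2 and TAPBP, where pair 2 did. In pair 1 the log2 ratio also followed GC content across 11166 genes, which are not independent (Spearman 0.53, against 0.11 and -0.09 in pairs 2 and 3). HLA-B and HLA-C transcripts have a median GC content of 59.5% and 61.4%, HLA-E transcripts 64.7% and B2M transcripts 40.5%. When trends with GC content and transcript length were removed library by library, a step chosen after the data were seen, the log2 fold changes in the block fit were 0.69 for HLA-B, 0.40 for HLA-C, 0.35 for B2M and 0.05 for HLA-E, and -0.20 for TAPBP (limma, adjusted p of 0.330 or more for all 9 genes). HLA-E was thus the gene whose difference shrank most, while that of B2M did not shrink. With group as the only term, TAP1 had a log2 fold change of -0.057 when overexpression replicate 2 was left out. That of TAPBP was above 0 without vector replicate 2 (0.30), overexpression replicate 1 (0.063) or overexpression replicate 3 (0.062).

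**Figure D3:**
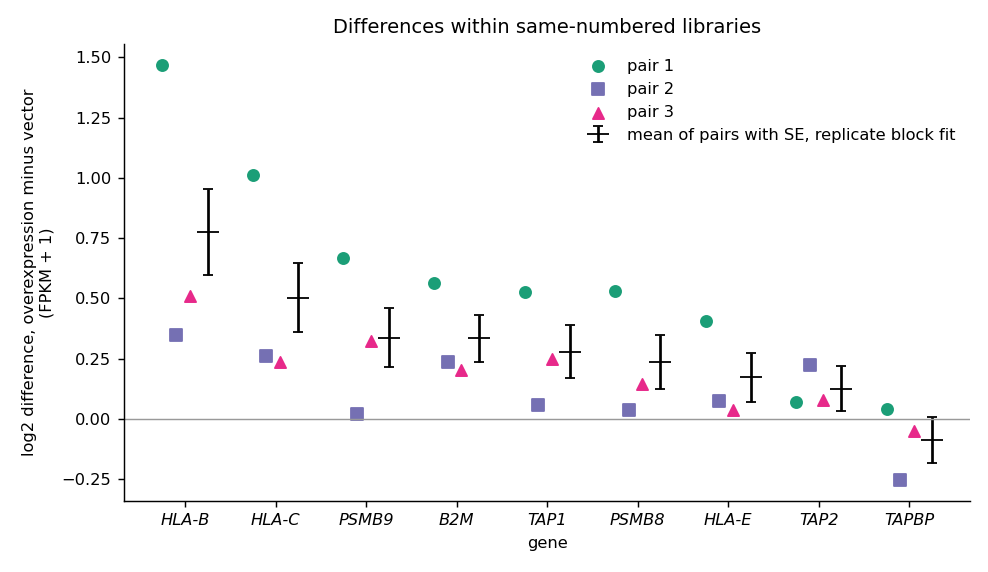
Log2 difference of FPKM + 1, overexpression minus vector, within each same-numbered pair (coloured symbols) and as the mean of the 3 pairs with its SE from the replicate block fit (black), for the 9 genes. Pair 1 lies highest for 8 of the 9 genes, from 1.47 for HLA-B to 0.04 for TAPBP, and TAP2 is the gene in which pair 2 lies highest.

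Replicate number set the 9 genes apart more than the group did. What a number stands for is not given in the labels, so numbers were used as categories without an order, with 1 vector and 1 overexpression library each. In the fit with group and number, 8 of 9 genes differed between numbers (limma F test, adjusted p from 0.000173 for TAP1 to 0.0266 for HLA-E), beside 46.5% of all loci, and TAP2 did not pass (adjusted p = 0.505). The same 8 genes were higher for number 2 than for number 1 and than for number 3, both at an adjusted p under 0.05, beside 18.8% of all loci. Both libraries numbered 2 lay above the other 4 for these 8 genes, beside 35.9% of all loci. No gene of the 9 differed between numbers 3 and 1, beside 0.547% of all loci.

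The sizes differed between the genes. PSMB9 was higher in number 2 by 1.15 (SE 0.15) against number 1 and by 1.21 (SE 0.15) against number 3 on the log2 scale, and TAP1 by 1.11 (SE 0.13) and 1.23 (SE 0.13). TAPBP, which was not higher in overexpression, was higher in number 2 by 1.05 and 0.998 (SE 0.12 each). For B2M the differences were 0.71 and 0.90 (SE 0.12 each), for PSMB8 0.58 and 0.63 (SE 0.14 each), and for HLA-E 0.41 and 0.42 (SE 0.12 each). HLA-B was higher in number 2 by 0.94 against number 1 and by 1.41 against number 3 (SE 0.22 each), where overexpression replicate 1 read 403 FPKM and overexpression replicate 3 read 209 FPKM. Over all loci the median differences were 0.09 and 0.05, against 0.76 and 0.93 over the 9 genes. The calls of HLA-E and PSMB8 ended without vector replicate 2 (limma, adjusted p = 0.245 and 0.0988), that of HLA-E also with trimmed-mean scaling (adjusted p = 0.119) and without a trend (adjusted p = 0.0530), and 3 of 9 genes were called without a filter on low values.

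**Figure D4:**
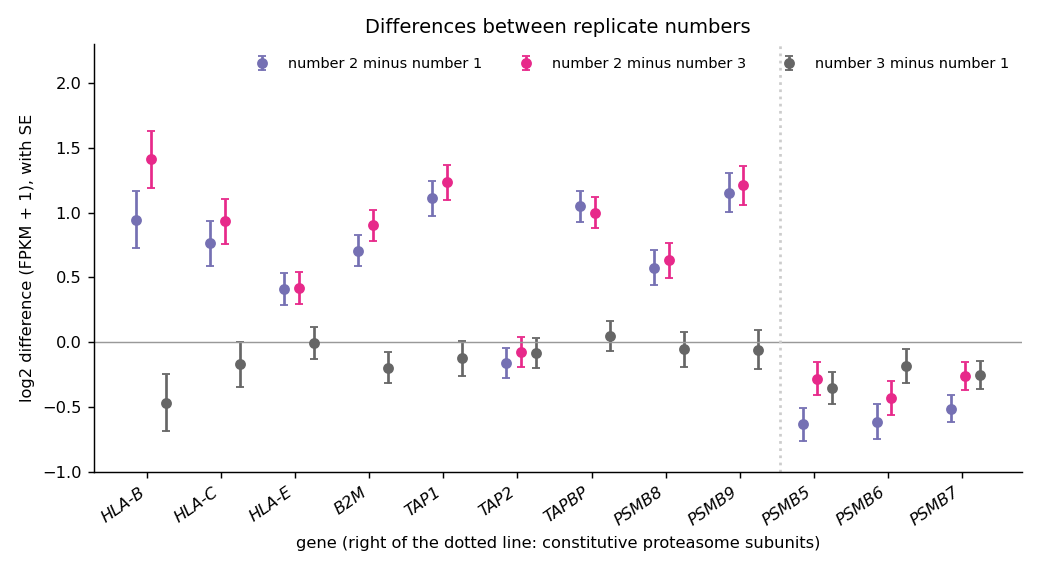
Log2 difference of FPKM + 1 between replicate numbers with its SE, from the fit with group and number, for the 9 genes and, right of the dotted line, the constitutive subunits PSMB5, PSMB6 and PSMB7. Differences of number 2 from numbers 1 and 3 are above 0 for 8 of the 9 genes and below 0 for the constitutive subunits, and those between numbers 3 and 1 are near 0 for most of the 9.

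Constitutive proteasome genes that changed in number 2 against both other numbers went the other way. Of the 14 genes of the constitutive core, 9 differed between numbers (beside 46.5% of all loci), 5 fell in number 2 against both other numbers (PSMA3, PSMA7, PSMB2, PSMB4 and PSMB6) and 0 rose, beside 13.3% of all loci that fell. PSMB5 read 122, 75.2 and 106 FPKM in vector libraries and 131, 87.96 and 92.3 FPKM in overexpression libraries. It was 0.63 lower in number 2 than in number 1 (limma, adjusted p = 0.00250) and 0.28 lower than in number 3 (adjusted p = 0.108). Across 11166 genes the difference of number 2 from the mean of numbers 1 and 3 did not follow GC content (Spearman -0.002), unlike the group difference in pair 1. Summed fibroblast markers read 8.90 and 11.3 FPKM in the libraries numbered 2 and 3.07 to 4.71 in the other 4, with COL1A1 the 1 of 6 markers to pass the filter and COL1A2 at 0. Summed endothelial markers read 1.38 and 1.71 FPKM in the libraries numbered 2 and 0.101 to 0.289 FPKM in the others, where 0 of 4 passed the filter and KDR was at 0. Summed leukocyte markers read 8.12 and 8.39 FPKM in the libraries numbered 2 and 7.03 to 11.8 FPKM in the others, and the part of these cell types in the differences was not tested.

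Other genes of peptide loading and trimming were taken as a list of 13. Of the 12 that passed the filter, 9 were higher and 3 lower in overexpression, with a median log2 fold change of 0.14. With the block 0 were called, beside 0.0995% of all loci, and without it 0, beside 0% of all loci. HLA-F, a nonclassical heavy chain, read 17.5, 67.6 and 22.7 FPKM in vector libraries and 39.2, 77.7 and 27.9 FPKM in overexpression libraries (log2 fold change 0.54). At the other end were UGGT1, a glycoprotein folding sensor (-0.22), and ERAP1, which trims peptides (-0.07). Between numbers, HLA-F, TAPBPL and ERAP1 were among the 4 of 12 genes that rose in number 2 against both others (18.8% of all loci), and SEC61G and SEC61A1, parts of the protein channel of the endoplasmic reticulum, fell (13.3% of all loci). HLA-G, the class I gene of the placenta, stayed below the filter at 0 to 0.557 FPKM.

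Regulators known to act on class I genes were tested as a list of 15. IRF9, which binds DNA within the interferon-driven complex ISGF3, was the 1 gene of the list called in the block fit, beside 0.0995% of all loci. It rose from 1.32, 2.13 and 1.47 to 3.97, 7.20 and 4.32 FPKM (log2 fold change 1.20, limma, block adjusted p = 0.00569, and 1.0 without the block). At levels this low, the 1 added to FPKM makes the log2 fold change smaller than that of FPKM itself. IRF9 shares 48.4% of its exon bases with AL136295.5 on the same strand, so its level is uncertain. The list's lowest values were NFYB (-0.21) and CREB1 (-0.14), which bind class I promoters, and 10 of 15 genes were higher with a median of 0.02.

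Regulators also differed between replicate numbers. IRF1, an interferon-induced activator of TAP1 and PSMB9, read 15.8, 50.9 and 20.9 FPKM in vector libraries and 18.2, 49.0 and 18.4 FPKM in overexpression libraries. It rose in number 2 by 1.504 and 1.31 on the log2 scale (limma, adjusted p = 2.47e-05 and 0.000108), with a group difference of -0.01. NLRC5, the class I transactivator, read 3.28, 9.21 and 5.41 FPKM against 4.001, 7.69 and 6.17 FPKM, and it too rose in number 2 (1.03 and 0.47, adjusted p = 0.000434 and 0.0317), with a group difference of 0.05. In all, 11 of 15 regulators differed between numbers, beside 46.5% of all loci. In number 2 against both others 6 of 15 rose (IRF1, IRF2, IRF9, NLRC5, RFX5 and STAT2), beside 18.8% of all loci, and 3 of 15 fell, a share near the 13.3% of all loci.

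The inducible proteasome genes that are not among the 9 differed between numbers, while their group differences were not called. Of PSMB10, the activator subunits PSME1 and PSME2, and the assembly factor POMP, 0 of 4 were called between groups in either fit. Beside this stood 0% of all loci with group only and 0.0995% with the block. The median log2 fold change of the 4 genes was 0.02. PSMB10 read 14.99, 37.95 and 15.96 FPKM in vector libraries and 17.8, 33.9 and 15.1 FPKM in overexpression libraries, a log2 fold change of 0.00071. PSME2 had the highest group difference (0.18), with 63.7, 83.3 and 65.4 FPKM against 75.7, 94.0 and 70.7 FPKM. Of the 4 genes, PSMB10, PSME1 and PSME2 rose in number 2 against both others and POMP fell, beside 18.8% and 13.3% of all loci.

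**Figure D5:**
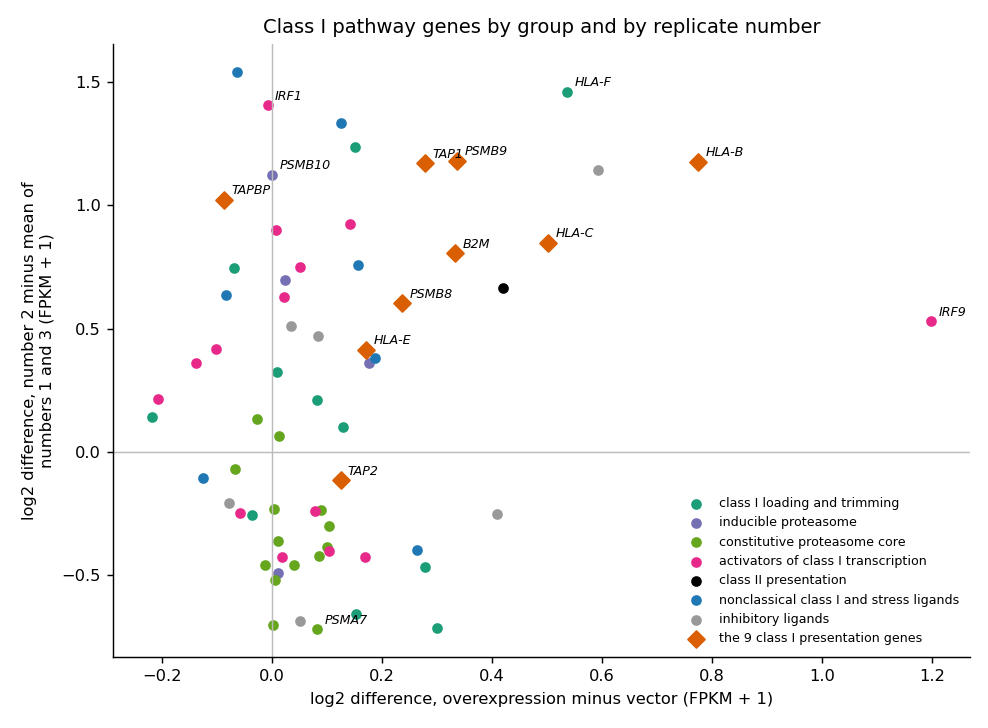
Tested genes of class I presentation and of the other lists, which include stress ligands, inhibitory ligands and the class II list gene CTSS. The x axis gives the log2 difference between groups (overexpression minus vector). The y axis gives the mean of the log2 differences of number 2 from numbers 1 and 3, both on FPKM + 1. HLA-B, HLA-C and HLA-F lie to the upper right, IRF1, PSMB10 and TAPBP lie high near 0 on the group axis, IRF9 lies far right, and most constitutive proteasome genes lie below 0 on the number axis.

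The genes most like the mean of the 9 over the 6 libraries were sought among 8249 other genes with an Ensembl identifier and a mean of at least 5 FPKM, by the root mean square difference of centred log2(FPKM + 1) values. GLMP, a lysosomal membrane protein, was nearest (0.0251), followed by PHF1 (0.0373), the lysosomal protease CTSB (0.0505), AP5B1 (0.0658) and HS1BP3 (0.0701). GLMP read 6.30, 13.2 and 6.71 FPKM in vector libraries and 10.1, 13.8 and 7.87 FPKM in overexpression libraries. Of the 9 genes, B2M lay nearest to their own mean (0.0475), followed by PSMB8 (0.0973), and TAP2 (0.455) and HLA-B (0.362) lay furthest from it.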

How the data were processed

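RNA was extracted with TRIzol and purified mRNA was made into libraries with a NEBNext kit, per the labels' protocols. The submitters' processing notes name HISAT2 and GRCh38. The counting tool, annotation and versions were not given in the sources used here. Per the file headers, the authors deposited FPKM values for 27328 loci, and no counts or depths, so no counting error is given. Loci with a FPKM of at least 1 in at least 3 libraries were kept (12064), and limma 3.58.1 (R 4.3.3) was run on their log2(FPKM + 1) values, with a trend in eBayes. Tests were 2-sided and adjusted by Benjamini-Hochberg over all kept loci, with a threshold of 0.05. The main fit had group as its only term. A further fit added replicate number as a block. No label explains the numbers, but same-numbered libraries correlated at 0.725, 0.881 and 0.529 after removal of group means, above the limit of 0.1, and were taken as pairs on that evidence. Numbers 1 and 3 also correlated when crossed (0.412 and 0.424), so their pairing is less clear. Nor is it labelled whether libraries of a group are separate cultures, so each p-value measures spread between libraries that may be technical only.

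The 9 genes, the lists and the tests were chosen with earlier results of these data known. The naming rule took all 9 genes and MYBL1, the highest and lowest 2 genes of each list, any list gene called, and the 5 genes most like the 9. A few list genes that the rule would name are not reported here. Genes named besides these were chosen after their values were seen. Promoters are RefSeq's (GRCh38). Alternatives were pseudocounts of 0.5 and 0.1, other filters, TPM, trimmed-mean and quantile scaling, no trend, library weights, the block, leaving out libraries, and an added GC and length correction. Whether either fit calls differences as small as those of most of the 9 genes was not tested.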

Additional observations from a re-analysis of the deposited data

How the results depend on the processing

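No alternative that kept all 6 libraries called any of the 9 genes between groups, and the direction of each of the 9 was the same in all of those. Loci called between groups numbered 0 in the group-only fit, 12 with the replicate block, 3 with the replicate block and the GC and length correction, 346 with library weights (whose estimate stopped before it converged), and 0 to 1 when 1 library was left out. In the replicate block fit they numbered 12 without replicate 1 of both groups, 135 without replicate 2 and 22 without replicate 3. Without replicate 2, 2 of the 9 genes were called, HLA-B (log2 fold change 0.99, adjusted p = 5.62e-11) and HLA-C (0.62, adjusted p = 0.000576). That fit keeps few residual degrees of freedom, so its p-values are unreliable. With 1 library left out, TAP1 ranged from -0.057 (without overexpression replicate 2) to 0.72 and TAPBP from -0.39 to 0.30, the latter above 0 without vector replicate 2 (0.30), overexpression replicate 1 (0.063) or overexpression replicate 3 (0.062). HLA-B ranged from 0.49 to 1.27, HLA-C from 0.28 to 0.85, HLA-E from 0.046 to 0.33, B2M from 0.09 to 0.63, TAP2 from 0.062 to 0.18, PSMB8 from 0.078 to 0.49 and PSMB9 from 0.023 to 0.81. The log2 ratios of inducible to constitutive subunits ranged from -0.11 to 0.65 (PSMB8), from -0.089 to 1.05 (PSMB9) and from -0.55 to 0.46 (PSMB10). For replicate number, 5605 loci and 8 of the 9 genes were called in the main fit, 3389 loci and 3 genes without a filter, and 3611 to 6230 loci and 6 to 8 genes with 1 library left out. Apart from the genes named, the cause of these changes was not tested. The replicate block changed no call among the 9 genes. Depth is unknown, so a difference that was missed cannot be set against counting error.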

Other observations

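Ligands that hold back immune cells were low or showed small differences between groups. At low levels, the 1 added to FPKM makes log2 fold changes smaller than those of FPKM itself. LGALS9, which encodes galectin-9, read 0.525, 2.62 and 0.557 FPKM in vector libraries and 1.55, 4.02 and 1.30 FPKM in overexpression libraries (log2 fold change 0.59, limma, block adjusted p = 0.281). PDCD1LG2, a ligand of the receptor PD-1, read 0.905, 0.771 and 0.978 FPKM against 1.40, 1.11 and 2.09 FPKM (0.41, block adjusted p = 0.617), while its relative CD274 gave -0.08 and the poliovirus receptor PVR 0.05. Of these 6 genes 0 were called between groups, beside 0% of all loci with group only and 0.0995% with the block, and the median was 0.07. Between numbers 4 differed, beside 46.5% of all loci. In number 2 against both others 3 rose, beside 18.8% of all loci, and 1 fell, beside 13.3%. LGALS9 rose there by 1.11 against number 1 and 1.17 against number 3, and PVR fell by 0.66 and 0.71.

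Among nonclassical class I genes and stress ligands, 7 of 10 passed the filter, with a median of 0.13. Between groups 0 were called, beside 0% of all loci with group only and 0.0995% with the block. MICA, a stress ligand of natural killer cells, read 57.8, 38.3 and 46.8 FPKM in vector libraries and 72.3, 47.7 and 52.6 FPKM in overexpression libraries (0.26, limma, block adjusted p = 0.571), and MICB gave 0.19. ULBP3 (-0.13) and HFE (-0.08) were lowest. In number 2, 5 of the 7 rose against both other numbers, beside 18.8% of all loci, among them MR1, which presents small metabolites, from 3.42 to 5.81 FPKM in the other 4 libraries to 14.7 and 11.8 FPKM. MICA, by contrast, was 0.58 lower in number 2 than in number 1 (adjusted p = 0.00189).

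Class II genes were near absence. Of 11, the lysosomal protease CTSS passed the filter (12.9, 24.6 and 13.7 against 22.4, 28.1 and 17.4 FPKM, log2 fold change 0.42, limma, block adjusted p = 0.460), and the other 10 did not. HLA-DQB1 was the highest of those 10, with 3.37 and 2.24 FPKM in the libraries numbered 2 and 0.557 to 0.912 FPKM elsewhere. CIITA, the class II transactivator, read 1.05 and 1.54 FPKM in the libraries numbered 2 and 0.211 to 0.330 FPKM elsewhere.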
